A study of Mus musculus with 8 samples.

Results

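The interleukin-1 (IL-1) family and inflammasome genes were described in brown adipose tissue (BAT) of mice with cancer-associated cachexia (CAC). The 10 members, Il1b, Il1rn, Il1r1, Il1r2, Il1rap, Il18, Il18bp, Il33, Nlrp3 and Casp1, were found by gene name among 56953 genes in the count table, and each matched 1 row. IL-1β and IL-18 are made as inactive precursors that caspase-1, encoded by Casp1, cleaves inside inflammasomes such as the one built around the NLRP3 sensor. IL-1β signals through IL-1R1 and its co-receptor IL-1RAP, while IL-1RN is a receptor antagonist, IL-1R2 a decoy receptor and IL-18BP a soluble binder of IL-18. IL-33, an alarmin released by damaged cells, acts through another receptor that also pairs with IL-1RAP, and in adipose tissue it is known for sustaining innate lymphoid cells.

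The mice were wild-type C57BL/6J, male or female, and 8 to 10 weeks old when they were divided into groups. The 4 CAC mice received 3000000 Lewis lung carcinoma (LLC) cells, a line from a lung tumour of the same strain, in 100 µL of PBS under the skin of the right flank. The 4 control (CTR) mice were injected with PBS alone. They were monitored for 21 days after the injection, and for CAC the study used only animals in which a tumour grew, so the group was also chosen by tumour take. Each library came from 1 mouse.

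RNA was counted at low depth, with 2454493 to 4827956 counts per library in CTR and 1823167 to 3392538 in CAC. At this depth a count of 0 leaves room for up to 3 counts, or 0.661 to 1.62 CPM (the count scaled to a common library size by the TMM method), and such limits and intervals reflect counting error alone. Brown adipocyte markers were all tested, with a summed level of 14896 to 16688 CPM in CTR and 14672 to 16871 CPM in CAC, and 1 of these 8 genes was called, Ppargc1a, a thermogenic coactivator, which rose by 0.73 on the log2 scale (edgeR adjusted p = 0.02). Plin1, a lipid droplet coat gene, differed by -0.27 on the log2 scale (adjusted p = 0.192 in edgeR), and every CAC library lay below every CTR library. In the edgeR quasi-likelihood test, 9876 genes passed the low-count filter and 92 of them, or 0.932%, had a Benjamini-Hochberg adjusted p under 0.05. Libraries of whole tissue cannot separate fewer cells of a type from less RNA per cell.

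Of the 10 members, 3 passed the filter (Il1r1, Il1r2 and Il18bp) and 7 did not. None of the 3 had an adjusted p under 0.05 in edgeR, and none did in DESeq2, against the background of 0.932%. With an unadjusted edgeR p under 0.05, 2 of the 3 were higher in CAC, Il1r2 and Il1r1, where 7.01% of all tested genes were. Il1r2 passed the filter through its CAC libraries, which favours this direction, so the count is a description. In 2 members, Il1b and Il1r2, every CAC library lay above every CTR library in CPM, though not in raw counts. This held in CPM for 3.64% of all tested genes and for 1.99% of genes below the filter with a mean of at least 1 count.

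The promoters of Il1b, Il1r2 and Il1rn are shown because the first 2 had groups that did not overlap and the third encodes the antagonist of the first. RefSeq windows of 300 bases (250 before and 50 after a start site, GRCm38.p6) were found for all 10 members, 15 windows in all. Capitals mark TATAAA in Il1b (chr2:129371090-129371389, minus strand), the NF-kB-like letters GGANNTTCC in Il1r2 (chr1:40085843-40086142, plus strand) and the AP-1-like letters TGANTCA in Il1rn (chr2:24336610-24336909, plus strand, the first of its 3 windows).
Il1b: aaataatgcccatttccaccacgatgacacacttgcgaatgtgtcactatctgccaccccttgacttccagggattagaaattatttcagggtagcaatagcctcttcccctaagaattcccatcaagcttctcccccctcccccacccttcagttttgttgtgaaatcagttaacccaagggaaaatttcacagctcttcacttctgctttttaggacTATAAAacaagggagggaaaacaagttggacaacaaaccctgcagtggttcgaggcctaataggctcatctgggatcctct
Il1r2: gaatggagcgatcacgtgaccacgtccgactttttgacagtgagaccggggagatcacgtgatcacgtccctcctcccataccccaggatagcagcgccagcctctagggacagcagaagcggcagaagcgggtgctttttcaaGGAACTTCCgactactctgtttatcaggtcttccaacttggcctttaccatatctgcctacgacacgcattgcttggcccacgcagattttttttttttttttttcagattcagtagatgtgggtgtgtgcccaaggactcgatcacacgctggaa
Il1rn: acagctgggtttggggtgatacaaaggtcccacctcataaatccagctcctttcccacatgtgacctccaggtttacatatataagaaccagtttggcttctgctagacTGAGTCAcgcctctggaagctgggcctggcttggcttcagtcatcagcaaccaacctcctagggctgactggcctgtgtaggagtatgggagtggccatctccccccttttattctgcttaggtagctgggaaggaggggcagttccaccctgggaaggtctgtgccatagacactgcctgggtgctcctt
The Il1b match began 31 bases before the start site, as the position -31 gives it, that of Il1r2 at -106 and that of Il1rn at -141. The Il1r2 match, GGAACTTCC, reads as a match on both strands. The searches covered both strands of 32851 promoter windows. The letters GGANNTTCC were in 4.26% of them and in 2 of the 15 member windows, Il1r2 and the second window of Nlrp3. TGANTCA was in 7.81% and in 1 member window, and TATAAA in 13.6% and in 5. TTGCNNAA, C/EBP-like, was in 10.8% and in 3 member windows (Il1r1, Il18bp and Il33), and GAGGAA, PU.1-like, in 28.3% and in 3 (Il33, Nlrp3 and Casp1). The matches describe letters in these windows and are not measured sites of binding.

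Among the ligands, Il1b (ENSMUSG00000027398.14, chromosome 2 from 129364570 to 129371139, minus strand, GRCm38) encodes the inflammasome-dependent cytokine IL-1β. Its raw counts were 1, 3, 1 and 2 in CTR replicates 1 to 4, and 3, 9, 6 and 3 in CAC replicates 1 to 4. The levels were 0.36, 0.80, 0.41 and 0.44 CPM in CTR and 1.62, 4.79, 1.76 and 1.05 CPM in CAC. In CPM all 4 CAC mice were above all 4 CTR mice, and CAC replicate 2 was well above the other CAC libraries. CTR replicate 2 and CAC replicates 1 and 4 had the same raw count, 3, so their separation rests on the scaling by library size. Pooled over mice, 7 counts in CTR stood against 21 in CAC, a ratio of 4.04 after scaling (exact 95% counting interval 1.65 to 11.2). The exact two-sided permutation test gave p = 0.0286, the smallest that 4 against 4 mice allow, without adjustment for the 7 members tested this way. Of the 7 members below the filter, 5 had a mean of at least 1 count, and Il1b was the only one of these 5 whose groups did not overlap, where 1.99% of such genes had every CAC library above every CTR library. Fitted without the filter, Il1b had a log2 fold change of 1.95 (SE 0.68, 95% interval 0.62 to 3.28, edgeR adjusted p = 0.167), so it did not pass over all genes. Without CAC replicate 2 the difference in means dropped from 1.8 to 0.972 CPM. Leaving out any 1 CTR library raised the exact permutation p to 0.0571. Fewer assignments are then possible and p moves in coarser steps, and the groups still did not overlap. The gene overlaps Il1bos on the opposite strand, and the strand setting of the counting is not given in the sources used here. Annotated genes also overlap Il1r2 (Gm16894 and Gm37347), Il1r1 (Gm38070), Il18 (Bco2 and Tex12) and Il1rap (Gm20319).

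Il18 (chromosome 9 from 50554827 to 50581840, plus strand) encodes IL-18, the other cytokine that caspase-1 activates. Its counts were 4, 9, 4 and 16 in CTR and 6, 10, 14 and 6 in CAC. The groups overlapped, and mean levels were 2.26 ± 0.94 CPM for CTR against 3.69 ± 1.36 CPM for CAC (SD, n = 4, p = 0.143 by exact permutation). The pooled ratio was 1.47, with a counting interval of 0.890 to 2.43. The CPM difference of 1.43 was 0.890 without CAC replicate 2.

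Il33 (chromosome 19 from 29925114 to 29960718, plus strand) had counts of 3, 1, 6 and 4 in CTR and 5, 1, 7 and 3 in CAC. Both groups held libraries with 1 count, and they overlapped over most of their range. The means were 1.18 ± 0.94 and 1.58 ± 0.98 CPM (SD, n = 4, p = 0.629 by exact permutation), and the pooled ratio was 1.54 (0.704 to 3.40). With 1 library left out the CPM difference of 0.403 ranged from 0.030 (without CAC replicate 1) to 0.840 (without CTR replicate 3). The counting intervals of Il18 and Il33 both held 1, and no difference was detected.

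**Figure D1:**
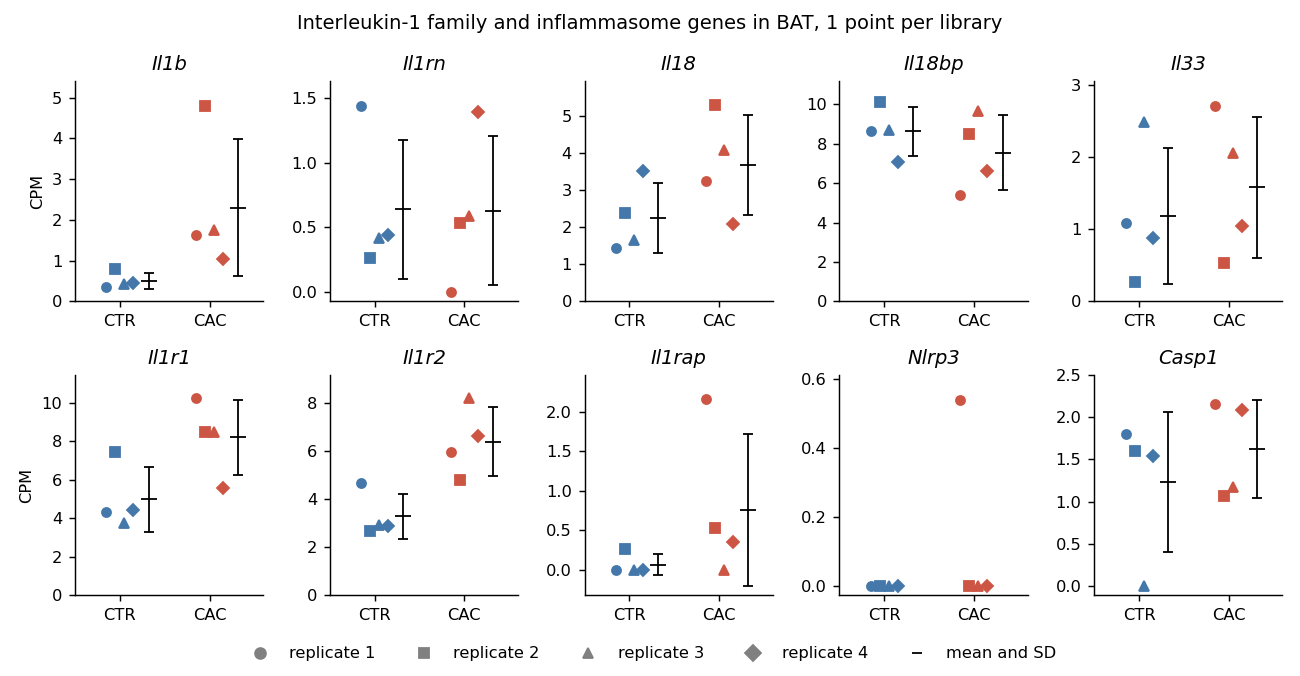
Level of each of the 10 members in CPM (vertical axes, each with its own scale) in the 4 CTR and 4 CAC libraries; points are libraries and black bars the mean and SD, left out for Nlrp3. The CAC points of Il1b (1.05 to 4.79 CPM) and Il1r2 (4.79 to 8.20 CPM) lie above all CTR points, and those of the other members overlap with CTR.

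Among the receptors, Il1r2 (ENSMUSG00000026073.14, chromosome 1 from 40074079 to 40125231, plus strand) encodes the decoy receptor, which binds IL-1 without signalling and is abundant on neutrophils. Raw counts were 13, 10, 7 and 13 in CTR and 11, 9, 28 and 19 in CAC. In CPM these were 4.68, 2.66, 2.90 and 2.87 in CTR and 5.95, 4.79, 8.20 and 6.62 in CAC. The groups did not overlap, although CTR replicate 1 and CAC replicate 2 were close, and 3.64% of all tested genes had every CAC library above every CTR library. The log2 fold change was 1.03 (SE 0.30, 95% interval 0.40 to 1.65). Its edgeR adjusted p was 0.11, and it ranked at 228 of 9876 genes by p. Across the alternatives the edgeR, DESeq2 and limma adjusted p ranged from 0.119 to 0.337. Il1r2 reached the filter's level of 3.52 CPM in 1 CTR library and in 4 CAC libraries, so that it passed the filter through the CAC group. The RefSeq start site of the promoter printed above lies inside the gene span of the annotation used for coordinates.

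Il1r1 (ENSMUSG00000026072.13, chromosome 1 from 40225080 to 40317257, plus strand) encodes the signalling receptor. Its counts were 12, 28, 9 and 20 in CTR and 19, 16, 29 and 16 in CAC. The levels were 4.32, 7.46, 3.73 and 4.41 CPM in CTR and 10.27, 8.51, 8.50 and 5.58 CPM in CAC. Only CTR replicate 2 and CAC replicate 4 crossed the gap between the groups. The log2 fold change was 0.66 (SE 0.28, 95% interval 0.08 to 1.24), and the gene reached the filter's level in all 8 libraries. Its edgeR adjusted p was 0.310.

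Il1rap (chromosome 16 from 26581704 to 26730117, plus strand), the co-receptor shared by IL-1 and IL-33, was close to the detection limit. Its counts were 0, 1, 0 and 0 in CTR and 4, 1, 0 and 1 in CAC, so that 4 of the 6 CAC counts came from replicate 1. The pooled ratio of 8.08 had a counting interval of 0.980 to 372, and the exact permutation test gave p = 0.143. Leaving out 1 library gave exact permutation p values of 0.0286 (without CAC replicate 3, the CAC library with no count) to 0.286, and without CAC replicate 1 it was 0.257.

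The other receptors of the family were also low. None of the 7 listed genes passed the filter, and 1 of them had no count in any library. Il1rl1, the IL-33 receptor, was named for this role after its values were seen, with counts of 1, 2, 1 and 4 in CTR and 0, 0, 3 and 3 in CAC. Il1r2, Il1r1, Il1rl2, Il1rl1, Il18r1 and Il18rap lie in this order on chromosome 1, from 40074079 to 40551705. Within this run of neighbours Il1r2 and Il1r1 passed the filter and the other genes did not.

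**Figure D2:**
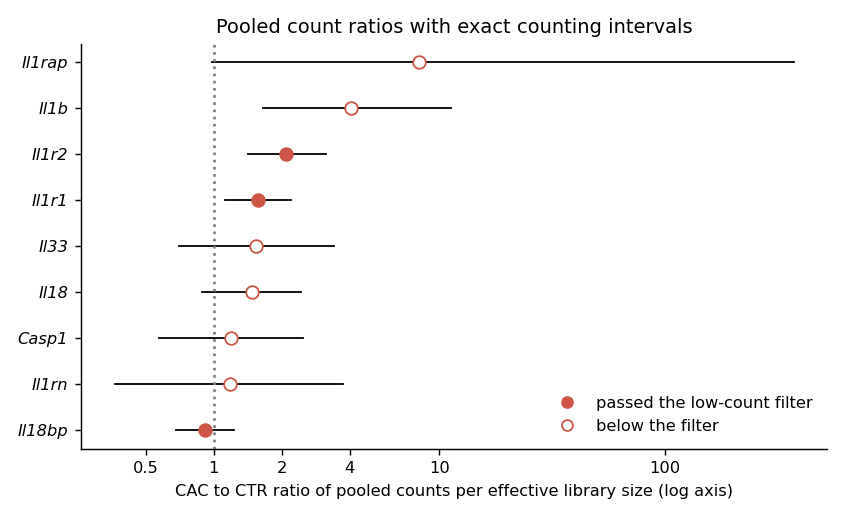
Ratio of CAC to CTR counts pooled over 4 mice per group and scaled by library size, with exact 95% counting intervals, on a log axis; filled points passed the low-count filter and Nlrp3 is left out. The intervals of Il1b (1.65 to 11.2), Il1r2 (1.41 to 3.15) and Il1r1 (1.12 to 2.19) lie above 1; they cover counting error and not the spread between mice.

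Among the inhibitors, Il18bp (ENSMUSG00000070427.5, chromosome 7 from 102014885 to 102018690, minus strand) had the most counts. They were 23.75, 37.75, 21.33 and 31.75 in CTR and 9.5, 15.75, 33.25 and 19.42 in CAC. Scaled levels overlapped, with means of 8.63 ± 1.25 CPM for CTR and 7.55 ± 1.90 CPM for CAC (SD, n = 4). The log2 fold change was -0.16 (SE 0.24, 95% interval -0.66 to 0.35, edgeR adjusted p = 0.852), so the interval did not include a change of 1 log2 unit in either direction. With 1 library left out the value ranged from -0.33 (without CAC replicate 3) to -0.04 (without CAC replicate 1), and it was -0.06 without CTR replicate 2. All 8 libraries hold fractions of reads on Il18bp, which overlaps Numa1 on the opposite strand, and its values are therefore uncertain.

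Il1rn (chromosome 2 from 24336853 to 24351494, plus strand), the receptor antagonist, had counts of 4, 1, 1 and 2 in CTR and 0, 1, 2 and 4 in CAC. Each group held 1 library with 4 counts and the groups overlapped. The means were 0.640 ± 0.538 and 0.628 ± 0.575 CPM (SD, n = 4, p = 0.971 by exact permutation), with a pooled ratio of 1.18 (0.364 to 3.72). The CPM difference, -0.012, had no fixed sign when 1 library was left out, from -0.268 (without CAC replicate 4) to 0.254 (without CTR replicate 1).

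The antagonist was then set against the ligand whose signal it blocks, the decoy against the signalling receptor and the IL-18 binder against IL-18, within a library, as the log2 ratio of counts with 0.5 added, which needs no scaling. Il1rn to Il1b was 1.58, -1.22, 0 and 0 in CTR and -2.81, -2.66, -1.38 and 0.36 in CAC. In 3 of the 4 CAC libraries Il1b had more counts than Il1rn, and CAC replicate 4 was the exception. The difference of -1.71 had an exact permutation p of 0.171. Il18bp to Il18 was 2.43, 2.01, 2.28 and 0.97 in CTR and 0.62, 0.63, 1.22 and 1.62 in CAC. CTR replicate 4 fell among the CAC libraries, and the difference of -0.90 had an exact permutation p of 0.0857. For Il1r2 to Il1r1 the CTR mean was -0.57 ± 0.65 and the CAC mean -0.34 ± 0.52 (SD, n = 4, p = 0.629 by exact permutation). The direction of this difference, 0.23, turned without CTR replicate 2 (-0.06). None of the 3 ratios passed the test, and these p values are not adjusted for 3 comparisons.

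**Figure D3:**
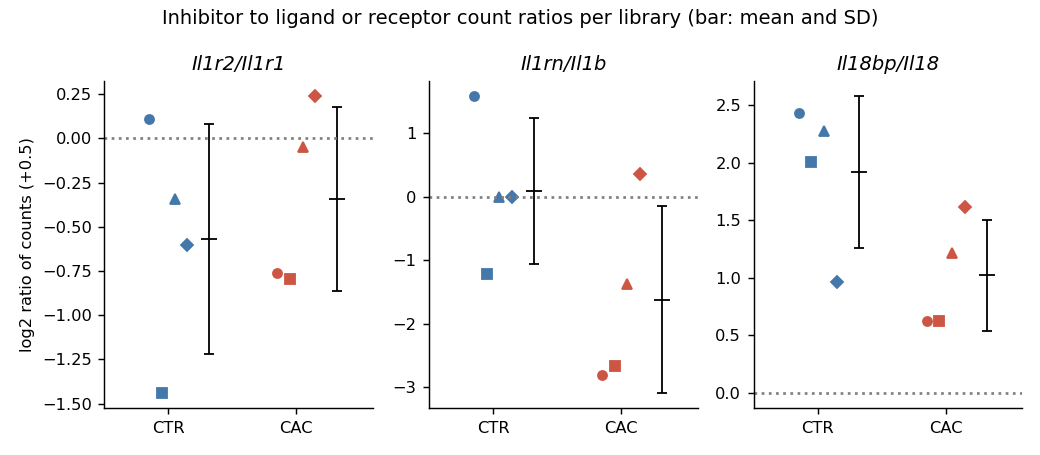
Log2 ratio of the raw counts (0.5 added) of antagonist to ligand (Il1rn/Il1b), decoy to signalling receptor (Il1r2/Il1r1) and binder to ligand (Il18bp/Il18) in each CTR and CAC library, with the mean and SD as black bars and a dotted line at equal counts. The groups overlap in all 3 panels, and the mean of Il1rn to Il1b is 0.09 in CTR and -1.62 in CAC.

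Of the inflammasome genes, Nlrp3 (chromosome 11 from 59541568 to 59566956, plus strand), the sensor, had 1 count in CAC replicate 1 and 0 in the other 7 libraries. No fold is given, since both groups were below 3 counts in total. Casp1 (chromosome 9 from 5298517 to 5307265, plus strand), the protease, had counts of 5, 6, 0 and 7 in CTR and 4, 2, 4 and 6 in CAC. The groups overlapped, and CTR replicate 3 was the only library with no count. The means were 1.24 ± 0.83 and 1.62 ± 0.59 CPM (SD, n = 4, p = 0.571 by exact permutation), with a pooled ratio of 1.20 (0.571 to 2.49). The CPM difference of 0.387 turned to -0.024 without CTR replicate 3.

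The sensors and adaptors outside the members comprised 14 genes, of which 5 had no count and 1, Nek7, was tested. Nek7, a kinase that binds NLRP3, differed by -0.06 on the log2 scale (adjusted p = 0.907 in edgeR). Pycard, the ASC adaptor that joins sensors to caspase-1, was named for this role after its values were seen, with counts of 3, 4, 6 and 10.5 in CTR and 1, 6, 18 and 10 in CAC. Of 7 inflammatory caspases and pyroptosis effectors, 2 were tested and neither was called. Casp8, an apoptotic caspase that can also cleave IL-1β, differed by 0.27 on the log2 scale (adjusted p = 0.785 in edgeR), and Ninj1, which ruptures the membrane late in pyroptosis, by -0.20 (adjusted p = 0.655). Gsdmd, the pore-forming target of caspase-1, was likewise named after its values were seen and had counts of 4, 8, 6 and 17 in CTR and 3, 5, 11 and 7 in CAC.

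Downstream of the receptor, 15 of the 19 IL-1 receptor signalling genes were tested and none was called by edgeR or DESeq2. Their log2 fold changes were positive in 10 and negative in 5, with a median of 0.13, against a median of -4.7e-05 over all tested genes. A single gene had an unadjusted edgeR p under 0.05, Map3k7, the TAK1 kinase, with a log2 fold change of -0.33 (adjusted p = 0.360). It is not set against the share of all tested genes lower at that threshold, and is a description. Tollip, an adaptor that restrains the receptor, came next by p, at -0.53 (adjusted p = 0.393 in edgeR). Tnfaip3, a feedback inhibitor of NF-kB named after its values were seen, had no count in any library.

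**Figure D4:**
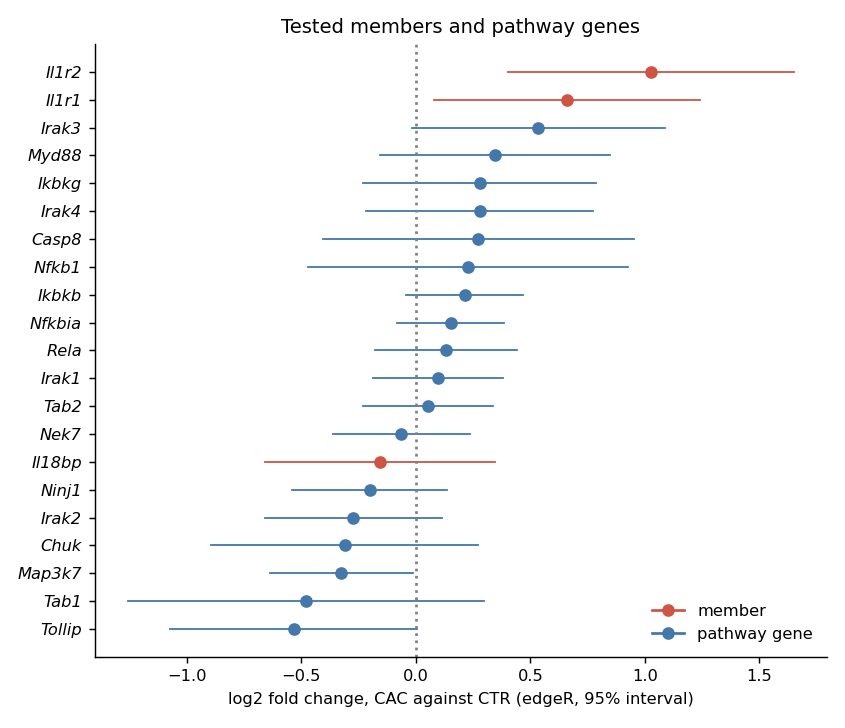
Log2 fold change of CAC against CTR with its 95% interval from edgeR for the 3 tested members (red) and 18 tested pathway genes (blue). Il1r2 (1.03) and Il1r1 (0.66) lie at the top with intervals above 0, Map3k7 (-0.33) has an interval below 0, and none of the genes passed after adjustment over all genes.

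Of the other IL-1 family ligands, 4 of 6 had no count and Il1a, named for its role as the other IL-1 receptor agonist after its values were seen, had 1 count in each group. Il36g, which encodes the epithelial cytokine IL-36γ, falls outside the rule for named genes and was chosen after its values were seen. Its counts were 0 in all 4 CTR libraries and 2.5, 0.5, 5 and 4 in CAC. Against a floor of 3 counts over the CTR group it was 4.94-fold higher in CAC with counts rounded as for the tests (5.39-fold with the counts as deposited). The CAC counts are taken as exact in this comparison, so it is not a confidence bound. Rounding took CAC replicate 2 to 0, so that the rounded groups overlap. Without the low-count filter edgeR gave an adjusted p of 0.0401, in a fit in which 0.923% of 23730 genes were called higher. Leaving out 1 library gave adjusted p values of 0.0254 to 0.174, and 7 of the 8 such fits lost the call. In CAC, 2 libraries hold fractions of reads on the gene, which other loci share.

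Summed markers of neutrophils and of monocytes and macrophages, like the levels of Il1b and Il1r2, did not overlap between the groups. The 13 neutrophil markers summed to 12.0 to 15.2 CPM in CTR and to 444, 204, 293 and 174 CPM in CAC replicates 1 to 4. S100a8 and S100a9 held most of this sum in CAC, and the other 11 markers summed to 6.84 to 9.32 CPM in CTR and to 40.5, 29.8, 32.5 and 19.5 CPM in CAC, a choice made after seeing the data. Of 4 neutrophil markers tested, 3 rose in edgeR: S100a8 by 5.57 on the log2 scale (adjusted p = 0.0052), S100a9 by 5.45 (adjusted p = 0.00018) and Retnlg by 3.4 (adjusted p = 0.016). Of all tested genes, 0.932% were called in either direction. In CTR, S100a8 was at 2.88 to 4.79 CPM, S100a9 at 0.830 to 2.52 CPM and Retnlg at 0.360 to 2.07 CPM. These 3 passed the filter through their CAC libraries, which favours this direction, so the count is a description. Ly6g, a defining neutrophil marker, had 0 counts in CTR and 1, 0, 1 and 0 in CAC, and Cxcr2 had 0 in CTR and 2, 5, 7.5 and 4 in CAC. The 13 monocyte and macrophage markers summed to 219 to 243 CPM in CTR and 299 to 422 CPM in CAC. All 9 tested had positive log2 fold changes. Of these, 2 were called, the complement genes C1qa and C1qb, which rose by 0.83 and 0.98 on the log2 scale (edgeR adjusted p = 0.0010 and 0.0014). C1qc, also tested, overlapped between the groups, with a log2 fold change of 0.33 (adjusted p = 0.637 in edgeR).

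The other immune lists overlapped between the groups, with sums of 19.1 to 27.2 CPM in CTR and 14.6 to 24.5 CPM in CAC for dendritic cells, 2.13 to 5.51 and 1.74 to 4.10 CPM for T, NK and innate lymphoid cells, and 9.36 to 22.0 and 12.8 to 24.0 CPM for mast cells. Mesothelial markers summed to 0.266 to 3.24 CPM in CTR and 1.06 to 8.11 CPM in CAC, with overlap, and none was tested. Of the dendritic, T and NK, and mast cell lists edgeR tested 1, 0 and 3 genes and called none. Only 1 of them, Zbtb46 of the dendritic list, had an unadjusted edgeR p under 0.05, with a log2 fold change of -0.50. Zbtb46 held most of the dendritic sum, at 19.1, 24.0, 18.3 and 24.3 CPM in CTR and 14.1, 22.3, 13.2 and 13.2 CPM in CAC. The other markers of this list were near the detection limit, the highest being Itgax, with means of 0.906 CPM in CTR and 1.00 CPM in CAC. The sum therefore chiefly describes Zbtb46, and the level of dendritic cells was not tested.

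Skeletal muscle markers summed to 850 to 2210 CPM in CTR and 1838 to 3314 CPM in CAC, with overlap. All 5 were tested and had positive log2 fold changes, with a median of 0.97. Of these, none passed after adjustment and 3 had an unadjusted edgeR p under 0.05, where 7.01% of all tested genes were higher in CAC. Erythroid markers summed to 6180 to 19266 CPM in CTR and 14631 to 44312 CPM in CAC, with overlap. Of these, edgeR called 0 of 5 after adjustment, and 4 were higher with an unadjusted p under 0.05, to be read beside the same 7.01%. Markers of endothelial cells ranged from 1222 to 1249 CPM in CTR and from 981 to 1462 CPM in CAC. Those of fibroblasts and adipocyte progenitors ranged from 400.4 to 488 CPM in CTR and from 385 to 525 CPM in CAC. No gene of either list was called by edgeR. With an unadjusted edgeR p under 0.05, 2 endothelial genes went opposite ways, Vwf (log2 fold change 0.78) and Kdr (-0.32). The 1 such fibroblast gene was Cd34 (0.69). These counts are descriptions, and Kdr and Zbtb46 are not set against the share of all tested genes lower at that threshold. The part of all the listed cell types in the levels of Il1b, Il1r1 and Il1r2 was not tested.

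**Figure D5:**
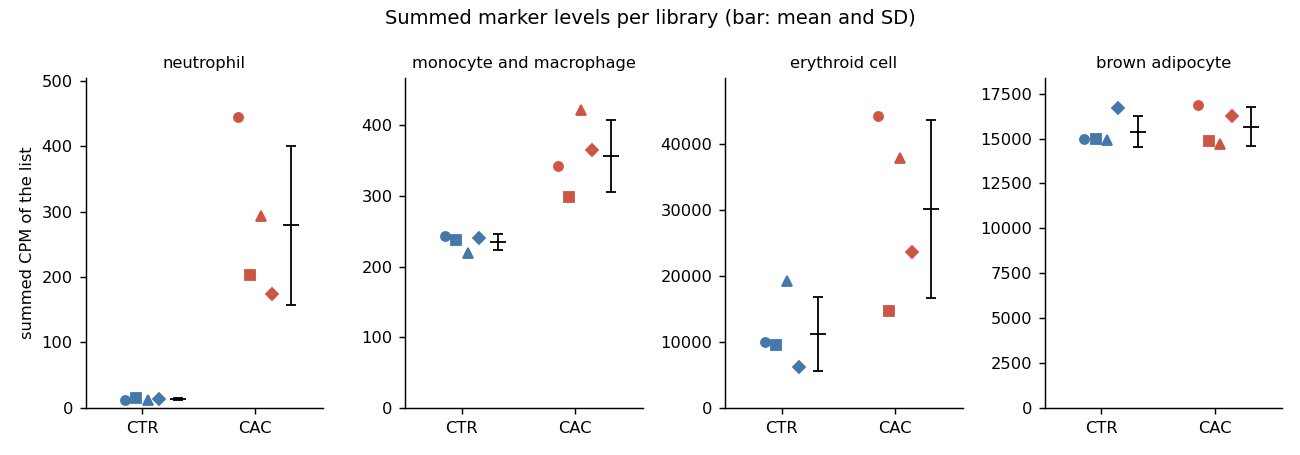
Summed CPM of 4 marker lists (vertical axes from 0, each with its own scale) in each CTR and CAC library, with the mean and SD as black bars. The neutrophil sums are 12.0 to 15.2 CPM in CTR and 174 to 444 CPM in CAC, the monocyte and macrophage sums do not overlap either, and the erythroid and brown adipocyte sums do.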

How the data were processed

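BAT RNA of 8 mice, 1 library each, was prepared with the NEGEDIA Digital mRNA-seq service and sequenced in single reads. The authors checked reads with FastQC 0.11.9, aligned them to mm10 with HISAT2 2.2.1 and counted them with featureCounts. The deposited table holds expected counts, in which 25.1% to 28.4% of a library's nonzero values are fractions, and a further deposited table holds a signal that the authors normalized with DESeq2. Expected counts were rounded and tested with edgeR 4.0.16 in R 4.3.3 (filterByExpr, TMM, robust quasi-likelihood, Benjamini-Hochberg over 9876 genes, threshold 0.05), after tests on simulated data. Members below the filter were compared in CPM by exact two-sided permutation over 70 assignments. Alternatives were DESeq2 1.42.0, limma-trend with limma 3.58.1 on that deposited signal, other scalings and filters, the replicate number as a block and each library left out. The unfiltered fits of Il36g and, with libraries left out, of Il1b were chosen after seeing the data. All 10 members are named. Per pathway list, named genes are those with an adjusted p under 0.05, else the 2 smallest p, and untested genes with a mean of at least 2 counts and no overlap. Per marker list, at most 3 genes are named, besides Ly6g and Cxcr2, which, like Il36g, Il1a, Il1rl1, Pycard, Gsdmd and Tnfaip3, were chosen after their values were seen. Members and lists were chosen with earlier results of these data known. Coordinates are those of GENCODE M21, which matched 91.4% of IDs without version. P-values set the difference between groups against the variation among libraries, each of 1 mouse, which at low counts includes counting error.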

Additional observations from a re-analysis of the deposited data

Results flagged for a closer look

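Of 23 groups of 4 libraries checked (the members with at least 4 counts in the group, and the 3 count ratios in both groups), 3 held a library far from the other 3, where chance gives about 1 in 20 groups, or 1.15 of 23. In CTR, Il1rn in replicate 1 was at 1.44 CPM, and the other 3 libraries were at 0.266 to 0.441 CPM. In the same library Il1r2 was at 4.68 CPM, against 2.66 to 2.90 CPM in the others. Casp1 had no count (0 CPM) in CTR replicate 3, and the others had 1.54 to 1.8 CPM. The values of Il1rn and Casp1 rest on fewer than 10 counts per library. Il1b in CAC was not among the 3 flagged groups, although replicate 2 was at 4.79 CPM and the others at 1.05 to 1.76 CPM.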

How the results depend on the processing

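No member was called under any alternative, and the direction of Il1r2, Il1r1 and Il18bp held in every fit that tested them. The count of genes called, 92, was 351 without the filter and 140 with the replicate block, and ranged from 42 (without CTR replicate 1) to 135 (without CTR replicate 3) with 1 library left out, with 60 without CAC replicate 3. The CPM difference of Il1b, 1.8, ranged from 0.972 to 2.22 with 1 library left out. Its exact permutation p rose to 0.0571 without any 1 CTR library, where fewer assignments are possible, and its groups still did not overlap. The CPM difference of Il1rap, 0.694, ranged from 0.227 to 0.948, and its exact permutation p was 0.0286 without CAC replicate 3. The Il1rn to Il1b difference of -1.71 lay between -2.39 (0.1 added to the counts) and -1.21 (without CTR replicate 1), and that of Il1r2 to Il1r1, 0.23, was -0.06 without CTR replicate 2. No ratio passed the test under any alternative. The cause of these shifts was not tested. The replicate block moved the log2 value of Il1r2 to 0.98 (adjusted p = 0.148 in edgeR) and that of unfiltered Il1b to 1.99 (adjusted p = 0.216), and the unfiltered Il36g call was lost with it (adjusted p = 0.241). The replicate numbers share no source in the labels, and same-numbered libraries correlated by -0.027 to 0.037. With at least 10 counts required in every library, Il18bp alone of the members was tested.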
